A study of Mus musculus with 40 samples.

Results

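The comparison described here is that of cortex taken 4 h after a first closed head injury (1xCHI) with cortex of sham-injured mice. It was chosen by the labels for number of injuries and hours since the last injury, and comprised 7 of the 40 samples of the series, 3 at 4 h after 1xCHI and 4 Sham. All 40 were female mice of the 3xTg-AD genotype, kept on a C57BL/6J background, which carry Alzheimer's disease transgenes in sham and injured animals alike, and all were young adults. The closed head injury was a weight drop on the intact skull of a mouse under isoflurane, and the full series collected tissue at several times after 1 to 5 such injuries. Sham mice were anesthetized without a blow, and they form a single group pooled over collection times and numbers of exposures. The labels give the Sham samples a time of 0. Each sample was left somatomotor cortex from a separate mouse, so the spread between samples is that between animals. Samples carry the numbers of their labels, 6, 20, 35 and 39 for Sham and 15, 16 and 36 for 1xCHI at 4 h.

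A blow to the closed skull stretches vessels and cell processes without opening the brain, and the first hours are known for the release of chemokines by glia and vessel walls and for the start of astrocyte reactivity. Chemokines such as Ccl2 and Ccl4 draw monocytes and other white cells toward tissue. Reactive astrocytes make intermediate filaments, secreted proteins and cytokine receptors, and neurons switch immediate early genes on and off within minutes to hours of a change in firing. In bulk cortex, fewer cells of a type and less RNA per cell cannot be told apart.

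Total counts ran from 17903157 to 27859547 in the 7 samples. Neuronal tissue was present in each: neuronal markers summed to between 22160 and 26020 CPM (counts scaled to library size), and the excitatory neuron transporter Slc17a7, which other regions also express, lay between 930 and 1358 CPM. Thalamus and striatum markers summed to 304 to 341 CPM in 3 Sham samples and to 753 CPM in Sham sample 39, and to 370, 297.5 and 504 CPM in samples 15, 16 and 36. The samples at 4 h did not form a tight group. Per gene, the chi-square statistic between samples 15 and 16 was 25.4, within reach of the Sham pairs (7.52 to 25.5), whereas sample 36 differed from them by 74.3 and 77.9. Samples 15 and 16 are numbered 1 to 18 in the labels, as is 1 of the 4 Sham samples, and sample 36 and the other 3 Sham samples are numbered 19 to 40. These ranges were set in earlier work on these data after a principal component separated them, and no source calls them a batch. Number range and injury therefore overlap in part. The counts of gene lists are therefore also given with single 4 h samples left out and with the number range as a covariate.

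Sample 15 also held transcripts of other tissue. Counts of Cbln3, a cerebellar granule cell gene, were 17, 20, 11 and 12 in Sham samples 6, 20, 35 and 39 and 645, 22 and 11 in samples 15, 16 and 36. Pcp2, a Purkinje cell gene, counted 4, 2, 0 and 1 in Sham and 135, 2 and 0 at 4 h. Igkc, an antibody light chain, counted 1, 3, 0 and 0 in Sham and 97, 1 and 0 at 4 h. All 3 genes, which were picked after their counts were seen, were high in sample 15 alone. Of the 16 meningeal markers, 7 were higher at 4 h with an unadjusted p under 0.05, where 6.96% of all features were. None was higher without sample 15, 14 were without sample 16, 15 without sample 36 and 2 with the number range as a covariate. Their summed level was 755 to 1140 CPM in Sham and 4344, 1261 and 677 CPM in samples 15, 16 and 36.

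Across genes, no feature passed the threshold. Of 15224 features tested with edgeR's quasi-likelihood test, 0 had a Benjamini-Hochberg adjusted p under 0.05, and 1603 had an unadjusted p under 0.05 (10.5% of those tested), of which 1059 were higher (6.96%) and 544 lower (3.57%) at 4 h. The median log2 fold change over all features was 0.02. The levels of all 3 samples lay above all 4 Sham samples for 467 features (3.07%) and below them for 363 (2.38%). DESeq2 called 11 genes on the same counts. The number of calls depended on sample 36. Without it edgeR called 578 genes, and without sample 15 or sample 16 it called 0. Without sample 36 both 4 h samples are numbered 1 to 18, as is 1 of the 4 Sham samples. Counts without sample 36, here and below, thus mix number range with injury more fully, and the part of each was not tested. At unadjusted p under 0.05, 583 features were higher (3.83%) and 374 lower (2.46%) without sample 15. There were 483 (3.17%) and 222 (1.46%) without sample 16, and 2197 (14.4%) and 2429 (16%) without sample 36. With the number range as a covariate, 686 were higher and 483 lower. Differences from Sham are given below as levels with their unadjusted p.

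Several chemokine transcripts, Ccl2, Ccl4 and Ccl7 among them, were close to absent from sham cortex and present in each 4 h sample, at counts too low for the study's filter. Of the 41 listed cytokines and chemokines, the 14 that were tested had none at an unadjusted p under 0.05 in either direction and a median log2 fold change of -0.07. They include Cx3cl1, the neuronal chemokine, at 550 to 754 CPM in Sham and at 496, 501 and 699 CPM at 4 h. The other 27 were left out of the main test, whose filter (below 10 counts in 5 samples or more) drops genes that are on in a single group. A wider filter (10 or more counts in at least 3 of the 39 samples), added after the values were seen, brought in 2992 features, of which 248 were higher at 4 h with an unadjusted p under 0.05 (8.29%) and 39 lower (1.3%). This filter asks for no more samples than the 4 h group holds, so a gene could enter by being high at 4 h alone. The excess of higher over lower features could thus come from the filter itself, and p-values under it are descriptive. The filter brought in 11 of the 27 listed genes, and 5 were higher at that threshold and none lower. Counts did not overlap, with 4 h above Sham, for 6 of these 11 and for 3.71% of the 2992 features. No feature passed the adjusted threshold under the wider filter.

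Ccl4, a chemokine of activated microglia and macrophages, had counts of 0, 0, 1 and 0 in Sham samples 6, 20, 35 and 39 and of 14, 6 and 20 in samples 15, 16 and 36. Relative to library size the 4 h level was 57 times that of Sham, with a 95% exact counting interval of 9.66 to 2310 that covers counting error only (unadjusted p = 0.000239, adjusted p = 0.179 by edgeR under the wider filter). Ccl2, the main attractant of monocytes, counted 0, 0, 1 and 1 in Sham and 9, 11 and 32 at 4 h, a ratio of 37 (9.75 to 314). Ccl7, a related ligand of Ccr2, counted 0, 1, 0 and 1 in Sham and 18, 12 and 15 at 4 h, a ratio of 32.1 (8.37 to 273). For all 3 genes every 4 h sample lay above every Sham sample, and the unadjusted p stayed between 0.000633 and 0.00946 when sample 15 or sample 36 was left out. Cxcl10, a ligand of Cxcr3 that interferons induce, counted 7, 6, 0 and 1 in Sham and 26, 20 and 32 at 4 h (ratio 7.94, 4.46 to 15.2, unadjusted p = 0.00571). Ccl9 had a ratio of 3.13 that passed the threshold of 0.05 (unadjusted p = 0.0282), but not without sample 15 (unadjusted p = 0.0716). Ccl12 had a ratio of 4.08 and missed that threshold (unadjusted p = 0.0669, edgeR under the wider filter). Ccl3 counted 2, 4, 1 and 2 in Sham and 1, 10 and 20 at 4 h, so sample 15 lay within the Sham range. Cxcl2 had no count in Sham or in sample 15, and 4 and 5 in samples 16 and 36.

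The chemokines were not all at their highest at 4 h. At 30 min after the first injury Ccl2 counted 3, 26 and 4 and Ccl7 counted 5, 46 and 5, with sample 14 the high one, and the difference between 4 h and 30 min had an unadjusted p of 0.408 for Ccl2 and 0.901 for Ccl7. Ccl4 counted 1, 5 and 2 at 30 min and 3, 1, 3 and 0 at 24 h, below all 4 h samples at both times (unadjusted p = 0.0234 and 0.0051). Cxcl10 counted 3, 0 and 6 at 30 min and 20, 14, 5 and 19 at 24 h, the latter reaching into the range at 4 h.

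Il1a, Il1b and Il6 did not show this pattern. Il1a counted 4, 21, 9 and 9 in Sham and 10, 10 and 10 at 4 h (ratio 0.994, 0.602 to 1.62). Il1b counted 7, 8, 13 and 2 in Sham and 13, 5 and 11 at 4 h (ratio 1.38, 0.798 to 2.37). For both interleukins the groups overlapped. Il9, Il13 and Il17a had no count in any of the 7 samples, as did Csf2, Ifng and Il10. Il6 counted 1, 0, 3 and 1 in Sham and 1 in each 4 h sample (ratio 0.855, 0.133 to 4.39). The intervals of Il1a and Il1b, which cover counting error only, did not reach the ratios of Ccl2, Ccl4 and Ccl7. Smaller differences in Il1a and Il1b were not detectable at this depth, nor was a difference in Il6, with 5 counts in Sham and 3 at 4 h. Il15, which sustains natural killer and memory T cells, counted 2, 6, 3 and 7 in Sham and 8, 3 and 14 at 4 h (ratio 1.98, 1.04 to 3.85), Il2 had a ratio of 1.9 (0.578 to 6.64) and Il12b one of 4.27 (0.343 to 224) on 4 counts in all. The groups overlapped in all 3. Tnf, a cytokine outside the interleukins, counted 0, 2, 0 and 0 in Sham and 2, 7 and 1 at 4 h, a ratio of 7.12 with a counting interval of 1.52 to 66.9, and its groups overlapped. Cxcl1 counted 1, 1, 0 and 0 in Sham and 2, 4 and 3 at 4 h, which do not overlap but rest on 11 counts in all.

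**Figure D1:**
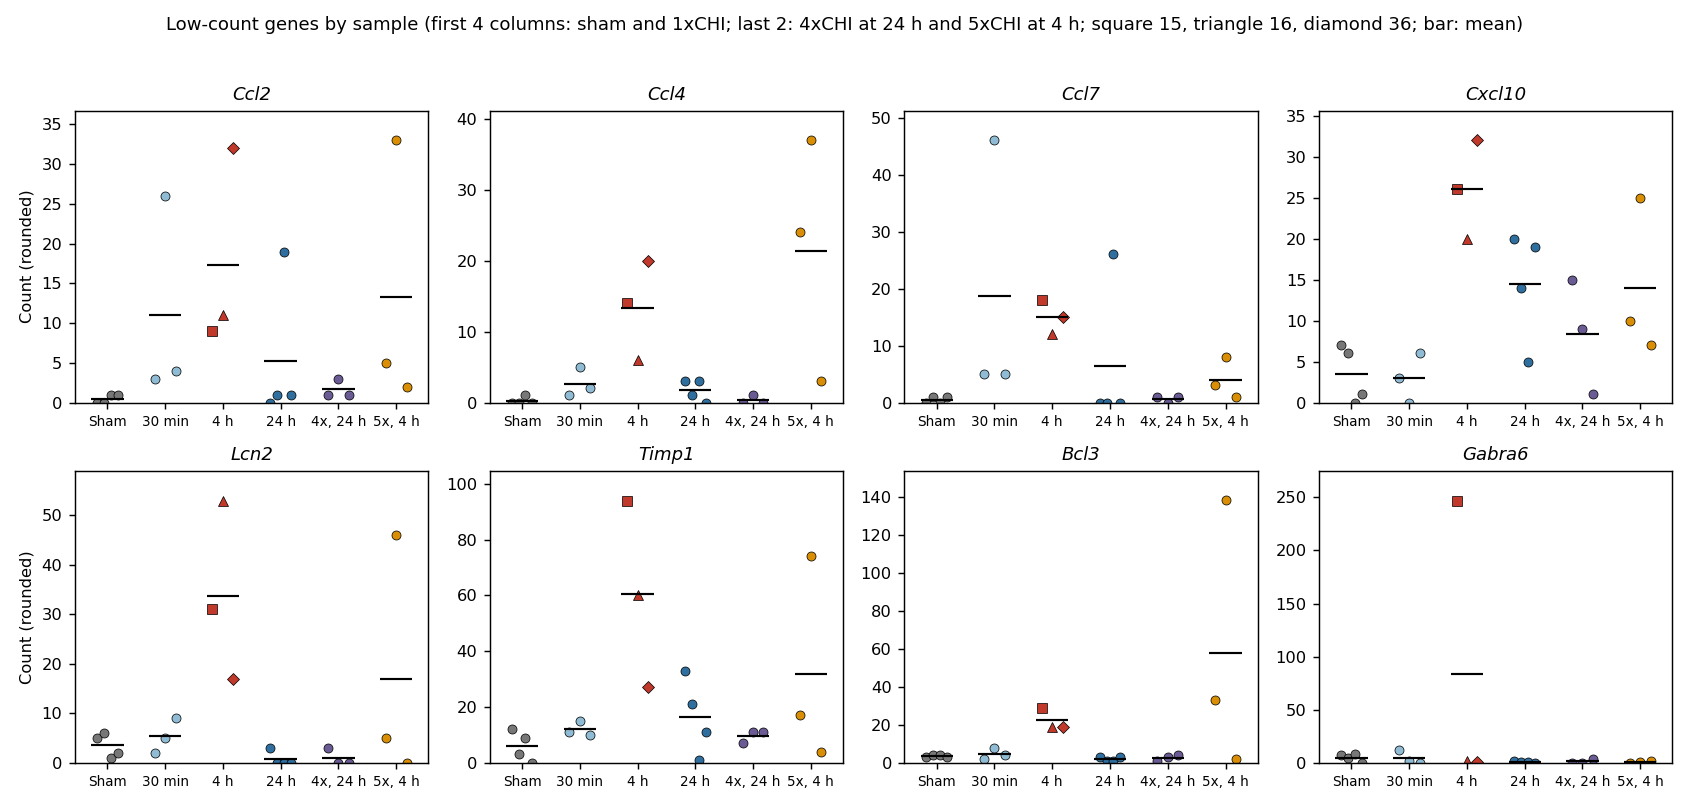
Rounded counts (vertical axis from 0) of low-count genes in Sham, at 3 times after 1xCHI, at 24 h after 4xCHI and at 4 h after 5xCHI, with 1 panel per gene, 1 point per sample and a bar at the mean. For Ccl4 the Sham samples hold 0 or 1 count and the 4 h samples 6 to 20, while the cerebellar gene Gabra6 is high in sample 15 alone, at 247.

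The mean level of reactive astrocyte genes stood above that of every Sham sample in each of the 3 samples at 4 h. Of 30 listed genes 22 were tested, 9 were higher with an unadjusted p under 0.05 (6.96% of all features were), none was lower, and the median log2 fold change was 0.75. For 11 genes all 4 h samples exceeded all Sham samples, beside 3.07% of all features. The mean log2 level of the list stood 0.87, 0.47 and 0.43 above the Sham mean in samples 15, 16 and 36, whereas the Sham samples ranged from -0.06 to 0.10. Without sample 15 the count was 4 and the median 0.55. Without sample 16 they were 9 and 0.77. Without sample 36 the count was 9 and the median 0.88, and with the number range as a covariate they were 6 and 0.49.

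Emp1, a membrane protein of reactive glia and epithelia, stood at 3.00, 1.96, 1.83 and 1.30 CPM in Sham and at 8.86, 5.16 and 9.88 CPM at 4 h (log2 fold change 1.98, SE 0.63, unadjusted p = 0.00377, edgeR). Osmr, the receptor subunit for oncostatin M, lay between 3.77 and 4.08 CPM in Sham and at 10.3, 6.23 and 8.82 CPM at 4 h (1.11, SE 0.45). S100a10, a calcium-binding protein that partners annexin A2, lay between 13.0 and 13.9 CPM in Sham and at 25.3, 21.2 and 17.5 CPM at 4 h (0.67, SE 0.19). In each of these genes the 4 h samples were all above the Sham samples. Cd109 (log2 fold change 1.70), Gbp2 (0.96) and Aspg (1.71) were also separated. Cd44, the hyaluronan receptor, stood at 1.39 to 2.48 CPM in Sham and at 4.15, 4.95 and 5.88 CPM at 4 h. Gfap, the astrocyte intermediate filament, stood at 148, 174.5, 133 and 125 CPM in Sham and at 332, 204 and 230 CPM at 4 h. The groups did not overlap, yet the log2 fold change of 0.82 had an SE of 0.72 (unadjusted p = 0.265). That SE rests on a spread estimated over all 12 groups. The SD of Gfap was 21.9 CPM in Sham, 67.7 CPM at 4 h and 815 CPM at 4 h after 5xCHI. Serpina3n, a protease inhibitor of reactive astrocytes, overlapped between the groups, at 6.56 to 8.51 CPM in Sham and at 6.48, 5.16 and 10.4 CPM at 4 h.

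Below the study's filter, Timp1, an inhibitor of matrix metalloproteases, counted 12, 3, 9 and 0 in Sham and 94, 60 and 27 at 4 h, a ratio of 10.7 (7.0 to 17.2, unadjusted p = 0.00672). Lcn2, a secreted iron-siderophore carrier, counted 5, 6, 1 and 2 in Sham and 31, 53 and 17 at 4 h (ratio 10.3, 5.85 to 19.5, unadjusted p = 0.0155). That p was 0.0592 without sample 16 and 0.0578 with the number range as a covariate. At 24 h after the first injury Lcn2 counted 3, 0, 0 and 0 (unadjusted p for 4 h against 24 h = 0.00239). Neither gene overlapped between Sham and 4 h. Of 20 general astrocyte markers, Gfap among them, none had an unadjusted p under 0.05. Their median log2 fold change was 0.05 (2 higher and 2 lower without sample 36). The difference between this list and that of reactive astrocyte genes was not tested. Microglial markers were 0 of 20 in either direction, with a median of -0.08 (2 lower without sample 36), and 5 of 20 leukocyte markers passed the filter.

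**Figure D2:**
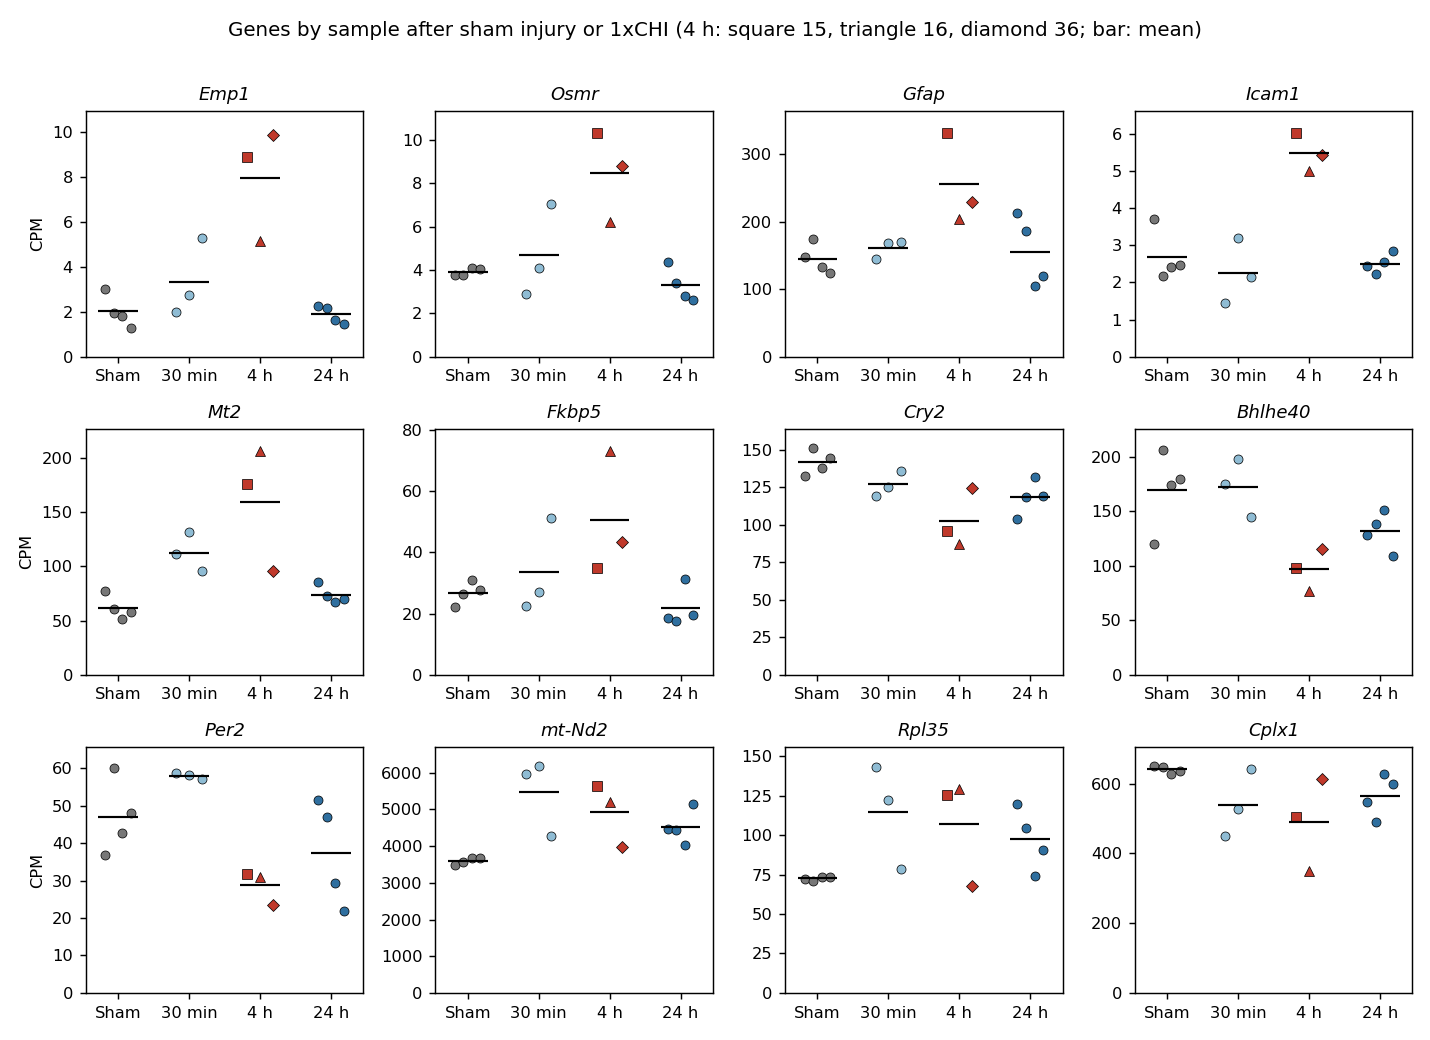
CPM (vertical axis from 0) of named genes in Sham and at 3 times after 1xCHI, with 1 panel per gene, 1 point per sample and a bar at the mean. Emp1, Osmr and Icam1 are higher in all 3 samples at 4 h, and Cry2 and Bhlhe40 are lower in all 3, with no overlap with Sham.

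Of the 26 genes of NF-kB and interferon responses that were tested, 8 were higher with an unadjusted p under 0.05, none was lower, and the median log2 fold change was 0.28, where 6.96% of all features were higher and 3.57% lower. For 1 of the 26 all 4 h samples exceeded all Sham samples, beside 3.07% of all features. Icam1, the adhesion molecule by which white cells hold to endothelium and glia, stood at 3.71, 2.18, 2.42 and 2.48 CPM in Sham and at 6.01, 5.00 and 5.42 CPM at 4 h (log2 fold change 1.03, SE 0.33, unadjusted p = 0.00428), higher in all 3. Bcl3, an NF-kB cofactor below the study's filter, counted 3, 4, 4 and 3 in Sham and 29, 19 and 19 at 4 h (ratio 6.82, 3.79 to 13.1), also without overlap. Ifit3 and Isg15, induced by interferon, were highest in sample 15. Ifit3, an antiviral protein, stood at 7.15 to 11.2 CPM in Sham and at 29.2, 10.8 and 9.73 CPM at 4 h, and the ubiquitin-like Isg15 stood at 0.70 to 2.02 CPM in Sham and at 4.87, 3.19 and 1.62 CPM at 4 h. In both, sample 36 lay inside the Sham range. Stat2 and Irf1, transcription factors of interferon signaling, were highest in sample 16, at 48.6 and 11.0 CPM, and sample 36 lay in the Sham range for both (36.3 and 6.59 CPM). The list had 3 genes higher without sample 15, 7 without sample 16, 9 higher and 1 lower without sample 36, and 5 higher with the number range as a covariate.

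The promoters of Icam1, Isg15 and Ifit3 of this list, and of Cxcl10 and Gbp2 of other lists, hold letters that NF-kB and interferon-regulated factors are known to bind. Shown are the stretches with matches, from RefSeq promoters of GRCm38.p6, read 5′ to 3′ along the gene's strand, in capitals where they match GGAAATTCC (an NF-kB site) or GAAANNGAA (the core of the interferon-stimulated response element), searched on both strands in the 250 bases before the start site.
Icam1 (chr9:21015775-21015807, plus strand): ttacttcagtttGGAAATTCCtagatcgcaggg
Cxcl10 (chr5:92349027-92349114, minus strand): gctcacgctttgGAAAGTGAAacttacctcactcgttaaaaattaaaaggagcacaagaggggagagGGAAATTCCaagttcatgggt
Isg15 (chr4:156200864-156200908, minus strand): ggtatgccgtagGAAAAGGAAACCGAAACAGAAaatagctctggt
Ifit3 (chr19:34583362-34583447, plus strand): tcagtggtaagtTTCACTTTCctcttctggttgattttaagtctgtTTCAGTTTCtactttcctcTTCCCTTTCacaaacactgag
Gbp2 (chr3:142620593-142620625, plus strand): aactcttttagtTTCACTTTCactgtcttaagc
In Isg15 the capitals are 3 overlapping matches. The NF-kB letters occurred in 3 of the 24 genes of the NF-kB and interferon list that have a promoter entry (12.5%) and in 0.286% of all 32851 promoters. The interferon letters occurred in 11 of the 24 (45.8%) and in 7.13% of all promoters. Of 30 cytokine and chemokine genes with an entry, 4 held the NF-kB letters (13.3%) and 6 the interferon letters (20%). The list was drawn up from genes of these responses, so such an excess was set in advance and says nothing of these samples. A listed gene counted when any of its promoter entries matched, whereas the share of all promoters counts single entries. For each gene the entry with the most matches is shown. These matches describe the sequence and do not show binding. Ccl2, Ccl4 and Ccl7 are named without a sequence.

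Mt2 and Fkbp5 stood higher in every 4 h sample, while most genes listed with them did not pass the unadjusted threshold. Mt2, a metallothionein that binds zinc and is induced by glucocorticoids and metals, stood at 76.9, 60.3, 51.9 and 58.4 CPM in Sham and at 176, 206 and 95.3 CPM at 4 h (log2 fold change 1.36, SE 0.39, unadjusted p = 0.00133). Its neighbour Mt1 stood at 86.5 to 114.5 CPM in Sham and at 206, 243 and 105.5 CPM at 4 h, with sample 36 inside the Sham range. Fkbp5, a chaperone of the glucocorticoid receptor, stood at 22.2, 26.4, 30.9 and 27.6 CPM in Sham and at 35.0, 73.0 and 43.4 CPM at 4 h (0.91, SE 0.33). Mt2 and Fkbp5 did not overlap between groups. Of 25 tested glucocorticoid-response genes, 2 were higher and 2 lower at unadjusted p under 0.05, with a median of 0.10, and of 24 metallothionein and Nrf2 genes 4 were higher and 1 lower, with a median of 0.21, beside 6.96% higher and 3.57% lower of all features. The glucocorticoid counts were 2 and 2 without sample 15, 1 and 0 without sample 16, 3 and 1 without sample 36, and 2 and 2 with the number range as a covariate. The 4 higher metallothionein and Nrf2 genes became 2 without sample 15, 1 without sample 16, 8 without sample 36 and 1 with the number range as a covariate. At 24 h after the first injury Fkbp5 stood at 17.5 to 31.4 CPM, below all 4 h samples (unadjusted p = 0.000866, adjusted p above 0.05).

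Several clock repressors stood lower in every 4 h sample. Of 23 clock genes 4 were lower and 1 higher at unadjusted p under 0.05, and in 5 all 4 h samples lay below all Sham samples, beside 3.57% of all features lower and 2.38% separated. There were 5 lower without sample 15, 3 without sample 16, 3 without sample 36 and 4 with the number range as a covariate. Cry2, a cryptochrome that represses Clock and Bmal1, stood at 132, 151, 137 and 145 CPM in Sham and at 96.1, 86.8 and 125 CPM at 4 h (log2 fold change -0.46, SE 0.11, unadjusted p = 0.000172, adjusted p = 0.225, edgeR). Bhlhe40, a repressor that competes for the same E-boxes, stood at 120, 206, 174 and 180 CPM in Sham and at 98.5, 76.5 and 115 CPM at 4 h (-0.81, SE 0.22). Per2 stood at 36.8, 60.03, 42.7 and 48.2 CPM in Sham and at 31.8, 30.9 and 23.5 CPM at 4 h (-0.71, SE 0.28). Each was lower in all 3 samples, and for Per2 sample 36 was the lowest of the 7. Per1 and Nr1d1 were separated the same way, whereas Per3 was higher at 4 h in log2 fold change (0.41), with overlap. Per2 stood at 57.1 to 58.6 CPM at 30 min, above all 4 h samples (unadjusted p = 0.00176). The clock hour of collection is not given in the sources used here, so that time of day and injury cannot be told apart for these genes. An E-box, CACGTG, shown in capitals, lies in the Per1 promoter, as in 5 of the 18 clock genes with an entry (27.8%) and in 6.02% of all promoters. The limits given above for such shares hold here too.
Per1 (chr11:69098771-69098800, plus strand): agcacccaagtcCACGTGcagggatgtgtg

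Immediate early genes were not high at 4 h. Of 20, none was higher and 3 were lower at unadjusted p under 0.05, and the median log2 fold change was -0.26, where 3.57% of all features were lower. The count was 2 without sample 15, 1 without sample 16, 1 without sample 36 and 1 with the number range as a covariate, and the median was -0.50 without sample 15 and -0.11 without sample 36. Egr1, a zinc finger factor that follows firing, stood at 164, 570, 468 and 302 CPM in Sham and at 220, 122 and 206 CPM at 4 h (-1.04, SE 0.42, unadjusted p = 0.0192). Sham samples spread more widely than the 4 h samples, with sample 20 the highest of the list, and sample 6 lay within the 4 h range. Against 30 min the same list had a median of -0.92, and Egr1 stood at 556, 539 and 265 CPM there (log2 fold change -1.31, unadjusted p = 0.00616). Among 25 later activity-dependent genes 1 was higher and 3 lower against Sham, with a median of -0.02, beside 6.96% and 3.57% of all features. They became 3 higher and 2 lower without sample 15, none without sample 16, 3 higher and 6 lower without sample 36, and 1 higher and 2 lower with the number range as a covariate.

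Another set of differences was carried by samples 15 and 16 and was not seen in sample 36. Of 68 ribosomal protein genes 21 were higher at unadjusted p under 0.05 and the median log2 fold change was 0.36. Over all features 6.96% were higher and 3.57% lower, and without sample 36 these shares were 14.4% and 16%. The list's mean log2 level stood 0.55 and 0.59 above the Sham mean in samples 15 and 16 and -0.17 from it in sample 36. Rpl35, a large-subunit protein, stood at 71.1 to 73.5 CPM in Sham and at 125, 129 and 67.9 CPM at 4 h. At 30 min it stood at 143, 122 and 78.6 CPM in samples 13, 14 and 27. At 24 h it stood at 120, 104.5, 74.3 and 90.5 CPM in samples 17, 18, 26 and 28. Without sample 15 the count was 1, without sample 16 it was 2, and without sample 36 it was 57. With the number range as a covariate it was 6 and the median 0.18. The 92 nuclear genes of the respiratory chain behaved alike, with 23 higher and a median of 0.26, with 2, 5 and 54 higher without samples 15, 16 and 36, and with 7 under the covariate. Synaptic vesicle genes were on the other side. Of 32, 7 were lower, the median was -0.18, and the list stood -0.36, -0.25 and 0.05 from the Sham mean. Cplx1, which clamps vesicle fusion, stood at 628 to 650 CPM in Sham and at 505, 350 and 614 CPM at 4 h, so that its groups were separated with sample 36 just below the lowest Sham value. Without sample 15 the count was 2, without sample 16 it was 0, without sample 36 it was 15, and under the covariate it was 4. Against 30 min and 24 h after the first injury, the ribosomal list had medians of -0.161 and 0.059. Those of the respiratory chain list were -0.155 and 0.013, and those of the synaptic vesicle list -0.045 and -0.052. Each list lay closer to these times than to Sham.

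The 13 protein-coding mitochondrial transcripts were higher together, all 13 with an unadjusted p under 0.05, where 6.96% of all features were higher, and with a median log2 fold change of 0.44. Their level summed to 53000 to 57680 CPM in Sham and to 82530, 76050 and 55680 CPM in samples 15, 16 and 36, the last within the Sham range. Their mean log2 level stood 0.69, 0.54 and 0.17 above the Sham mean in these samples, where Sham samples ranged from -0.18 to 0.09, and 5 of the 13 were separated from Sham. mt-Nd3, a complex I subunit, stood at 465, 341, 452 and 477 CPM in Sham and at 790, 612 and 507 CPM at 4 h (0.55, SE 0.14, unadjusted p = 0.00044), higher in all 3. Without sample 15 the count was 7, without sample 16 it was 11, without sample 36 it was 13, and under the covariate it was 13 with a median of 0.41. Against 30 min after the first injury their median log2 fold change was -0.13.

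**Figure D3:**
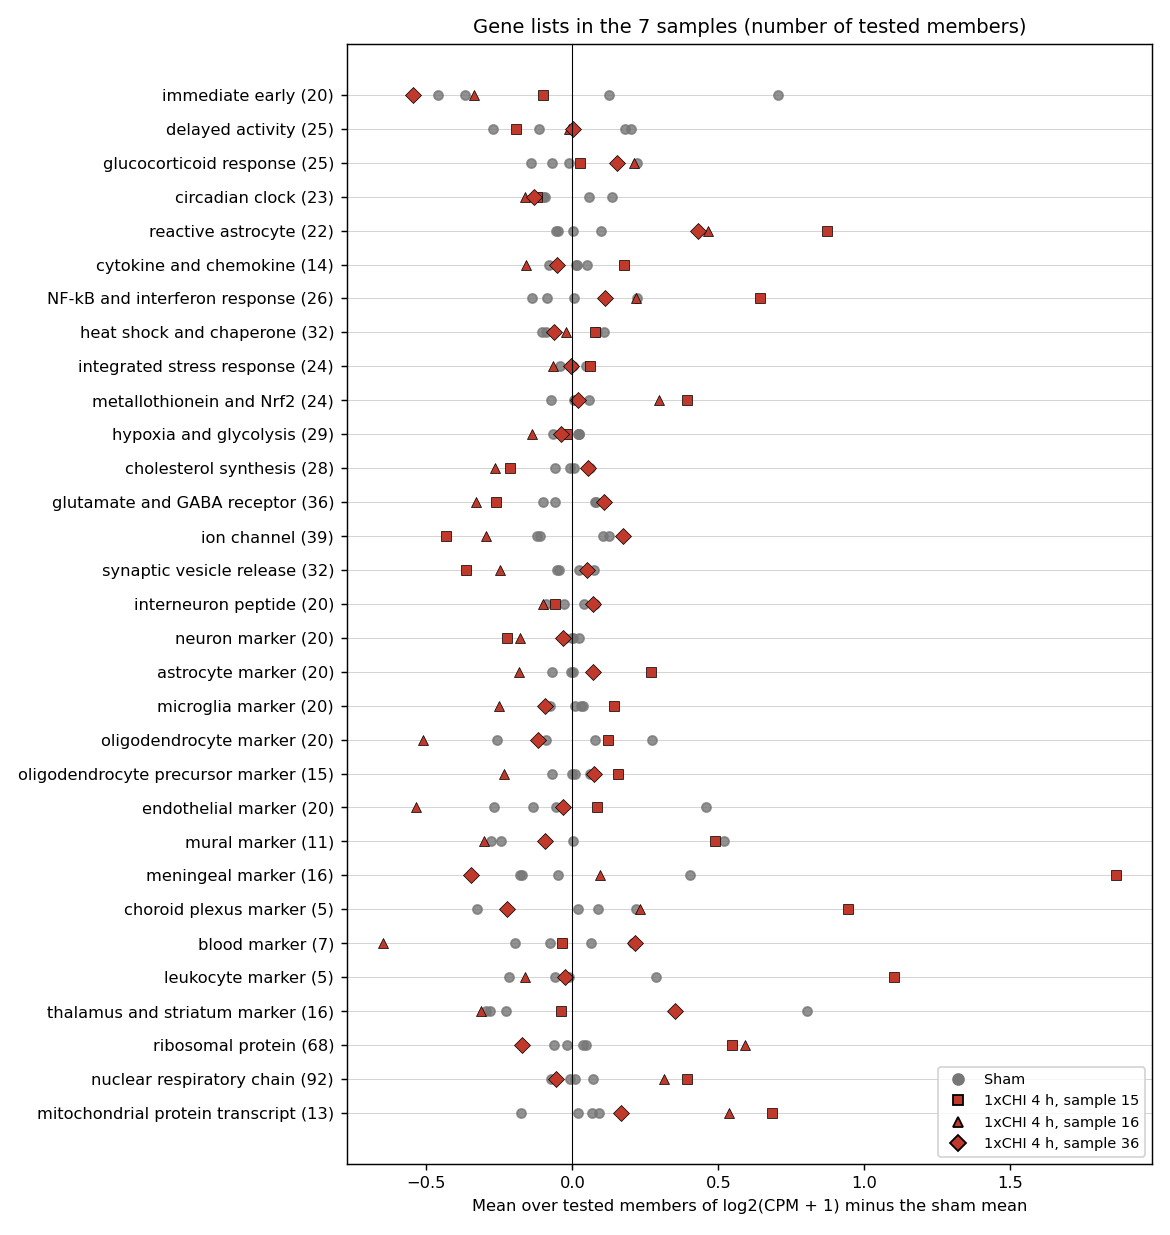
Mean log2(CPM + 1) of gene lists relative to the Sham mean (horizontal axis) in each sample, 1 row per list. Reactive astrocyte genes lie to the right in all 3 samples at 4 h (0.87, 0.47 and 0.43), while ribosomal protein genes do so in samples 15 and 16 only and meningeal markers mainly in sample 15 (1.86).

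The same pair of samples differed from the rest by gene length. Tested genes were split into 5 bins of exonic length. In the bin of shortest genes (168 to 2354 bases), 15.6% were higher and 1.15% lower at unadjusted p under 0.05, with a median log2 fold change of 0.19. In the bin of longest genes 2.69% were higher and 4.3% lower. The median level of the shortest bin stood 0.25 above the Sham mean in both sample 15 and sample 16 and -0.05 from it in sample 36. For the longest bin it stood -0.16, -0.17 and 0.08 from it. Ribosomal, respiratory chain and mitochondrial transcripts are short, and the part of length in their differences was not tested.

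**Figure D4:**
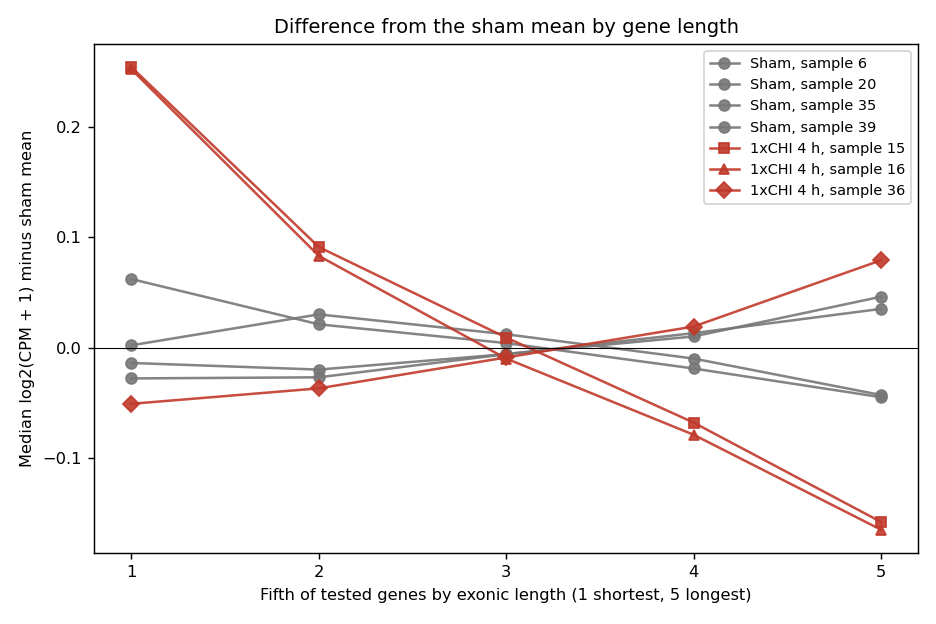
Median difference from the Sham mean on the log2(CPM + 1) scale (vertical axis) for 5 bins of genes by exonic length (horizontal axis, 1 shortest to 5 longest), 1 line per sample. Samples 15 and 16 slope from 0.25 down to -0.16 and -0.17, and sample 36 runs the other way.

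Of the 15 higher and 15 lower genes with the smallest unadjusted p and no overlap between groups, Cry2, Bhlhe40 and mt-Nd3 are described above. Among the higher ones, Cyp26b1, which degrades retinoic acid, stood at 1.58, 1.71, 2.42 and 1.97 CPM in Sham and at 9.02, 3.51 and 3.80 CPM at 4 h (log2 fold change 1.5, SE 0.33, adjusted p = 0.16, edgeR, and 0.0237, DESeq2). Cd24a, a surface sialoglycoprotein of young neurons and immune cells, stood at 2.84 to 5.21 CPM in Sham and at 8.66, 12.2 and 7.65 CPM at 4 h (1.15, SE 0.27). Anxa2, a phospholipid-binding partner of S100a10, stood at 7.46 to 10.9 CPM in Sham and at 31.5, 22.5 and 14.7 CPM at 4 h (1.43, SE 0.35). All 3 were higher in each 4 h sample, and Cyp26b1 was highest in sample 15, without which its log2 fold change was 0.93. Others were far higher in 1 sample. Mrgprf, Ifitm1 and Mpzl2 were highest in sample 15, at 8.45, 9.07 and 10.9 CPM, and stood at 1.77, 1.82 and 2.94 CPM in sample 36. The meningeal markers ran in the same order, at 4344, 1261 and 677 CPM in samples 15, 16 and 36. The part of other tissue in these genes was not tested. Itga11, a collagen-binding integrin, stood at 0.79 to 1.42 CPM in Sham and at 1.66, 7.19 and 1.52 CPM at 4 h, and Slc4a11, a membrane transporter, stood at 0.54 to 1.07 CPM in Sham and at 1.92, 10.9 and 1.42 CPM. Both were far highest in sample 16.

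Among the lower ones, Lrtm2, a leucine-rich repeat membrane protein, stood at 65.6, 75.4, 64.6 and 77.3 CPM in Sham and at 50.4, 52.3 and 61.3 CPM at 4 h (log2 fold change -0.37, SE 0.08, adjusted p = 0.16, edgeR, and 0.013, DESeq2). Enpp6, a choline phosphodiesterase of newly formed oligodendrocytes, stood at 8.34 to 11.9 CPM in Sham and at 4.56, 4.42 and 7.04 CPM at 4 h (-0.86, SE 0.22). P2rx7, the ATP-gated channel of glia, stood at 9.80 to 11.4 CPM in Sham and at 8.24, 6.12 and 8.01 CPM (-0.55, SE 0.14). In all of these sample 36 was below every Sham sample. Of the 11 genes that DESeq2 called, 8 were higher and 3 lower. Nnat, a small membrane protein of developing neurons, was the largest of them, at 27.5 to 38.0 CPM in Sham and at 243, 132 and 25.7 CPM at 4 h, so that sample 36 lay below the Sham range. Nnat was singled out after its values were seen.

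Within the first injury, 4 genes passed the adjusted threshold between 4 h and 30 min (0.0263% of 15224, edgeR), each with an adjusted p of 0.0456. Gbp6, an interferon-induced GTPase, rose from 1.44, 1.49 and 1.12 CPM at 30 min to 7.98, 4.31 and 3.85 CPM at 4 h (log2 fold change 1.99, SE 0.38). Zkscan7, a zinc finger factor, also rose (1.00, SE 0.18). Dnajc21, a cochaperone of ribosome assembly, fell by 0.73 on the log2 scale (SE 0.14), and Dpf1, a neuronal chromatin remodelling subunit, fell by 0.67 (SE 0.13). Gbp6 was also higher at 4 h than in Sham, at 2.13 to 2.53 CPM in Sham, with an adjusted p of 0.294. The 4 calls were lost with library size scaling, under the wider filter and when sample 13 or sample 14 at 30 min was left out, and 197 were made without sample 27. Against 24 h no gene passed, with 416 higher (2.73%) and 263 lower (1.73%) at unadjusted p under 0.05. DESeq2 called 17 genes against 30 min.

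The fifth injury gave a comparison at the same hour from mice that the first does not use, 4 h after 5xCHI (n = 3) against 24 h after 4xCHI (n = 3). No gene passed there in edgeR, and 537 were higher (3.53%) and 275 lower (1.81%) at unadjusted p under 0.05. Of the genes at that threshold, 58 were higher in both injuries (5.48% of the 1059 of the first and 10.8% of the 537 of the fifth) and 27 were lower in both. The signs were the same in both comparisons for 69.6% of the higher genes and 68% of the lower genes of the first injury, beside 63.2% of all features. At the same hour of the third injury (4 h after 3xCHI, n = 2 with sample 30 left out, against 24 h after 2xCHI, n = 3) the shares were 58.2% and 69.3%, beside 59% of all features. Number range is uneven in each of these comparisons. In that of the fifth injury 2 of 3 samples at 4 h and none of the 4xCHI samples are numbered 1 to 18. In that of the third both samples at 4 h and none of the 2xCHI samples are, so that number range and injury cannot be told apart there.

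Some of the chemokine and reactive astrocyte genes were at high levels in part of these samples. Ccl4 counted 0, 1 and 0 at 24 h after 4xCHI and 24, 37 and 3 at 4 h after 5xCHI (log2 fold change 5.49, unadjusted p = 0.000236, adjusted p = 0.868, edgeR). Ccl2 counted 1, 3 and 1 and then 5, 33 and 2 (unadjusted p = 0.0345). Ccl7, at 1, 0 and 1 and then 3, 8 and 1 counts, and Cxcl10, at 15, 9 and 1 and then 10, 25 and 7, did not pass the unadjusted threshold (unadjusted p = 0.148 and 0.526). Bcl3 counted 1, 3 and 4 and then 33, 138 and 2. Of the 22 reactive astrocyte genes 15 were higher at that threshold in the fifth injury, beside 3.53% of all features, with a median log2 fold change of 1.19. In the same comparison 12 of 20 microglial markers were higher, with a median of 0.52, and their part in the result was not tested. Emp1 stood at 4.25, 20.2 and 2.19 CPM at 4 h after 5xCHI and at 2.64, 0.26 and 3.07 CPM at 24 h after 4xCHI. Sample 10 was the highest after 5xCHI in each of these genes, and sample 32 the lowest. Gfap stood at 342, 1631 and 123 CPM there. For Cry2 and Per2 the log2 fold change of the fifth injury was -0.06, for Per1 it was -0.29 and for Bhlhe40 it was -0.41 (unadjusted p = 0.0863), and the ribosomal and respiratory chain lists had medians of 0.07 and -0.04. The test of the difference between the first and the fifth injury called 0 genes by edgeR, with 347 higher (2.28%) and 300 lower (1.97%) at unadjusted p under 0.05, and gave Cry2 an unadjusted p of 0.0164 and Emp1 one of 0.84.

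**Figure D5:**
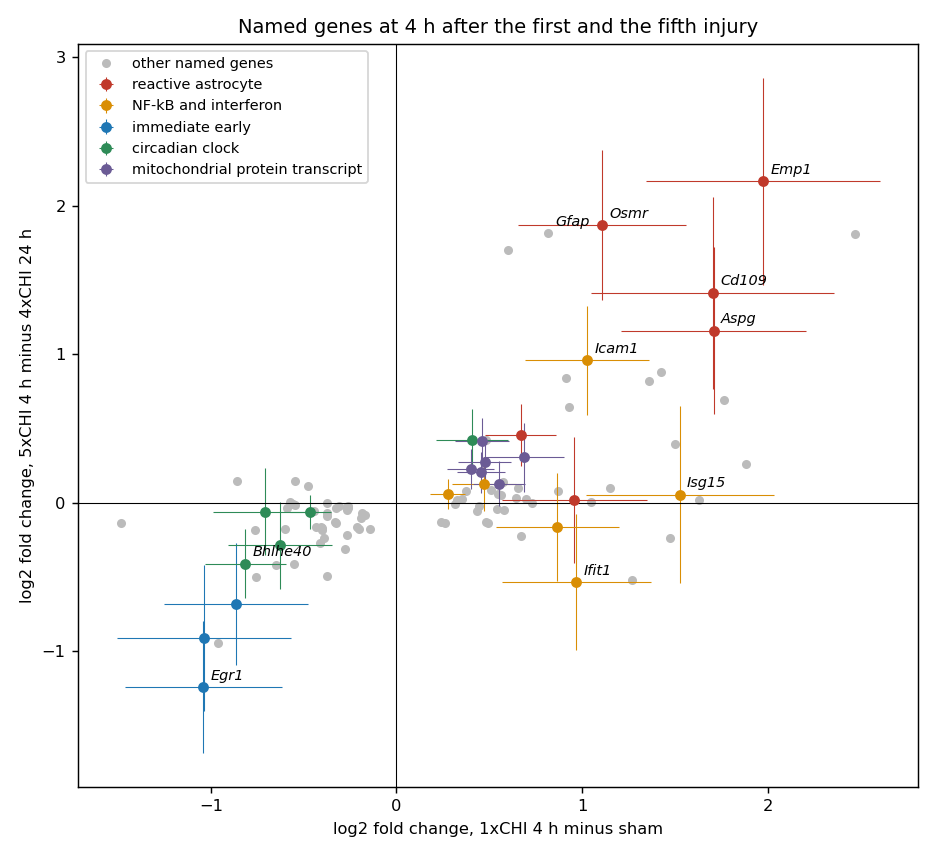
Log2 fold change of named genes at 4 h after the first injury against Sham (horizontal axis) and at 4 h after the fifth against 24 h after the fourth (vertical axis), 1 point per gene, with SE bars for genes of 5 lists. Emp1 (1.98 and 2.17) and Osmr (1.11 and 1.87) lie high on both axes, whereas Isg15 lies at 1.53 and 0.06.

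The remaining lists, here and in the next paragraph, are given by their counts at unadjusted p under 0.05, beside 6.96% higher and 3.57% lower of all features. Without sample 15 these shares of all features were 3.83% and 2.46%, and without sample 16 they were 3.17% and 1.46%. Without sample 36 they were 14.4% and 16%, so counts without that sample are to be read against these. Of 29 hypoxia and glycolysis genes 5 were lower and none higher, with 4 separated from Sham. Egln3, a prolyl hydroxylase that senses oxygen, stood at 13.2 to 16.2 CPM in Sham and at 10.7, 6.44 and 12.6 CPM at 4 h, below Sham in all 3. The list had 3 lower without sample 15, 0 without sample 16, 8 without sample 36 and 5 with the number range as a covariate. Neuronal markers (20) had 3 lower, which became 1 without sample 15, 0 without sample 16, 8 without sample 36 and 2 under the covariate. Cholesterol synthesis genes (28) had 2 lower, with 0 without sample 15, 1 without sample 16, 8 without sample 36 and 0 under the covariate. Glutamate and GABA receptors (36) had 1 higher and 2 lower, as they did without sample 15 and under the covariate, with none in either direction without sample 16 and 2 higher and 13 lower without sample 36. Ion channels (39) had 2 lower, with 1 in each direction without sample 15, 1 lower without sample 16, 1 higher and 20 lower without sample 36, and 2 higher and 1 lower under the covariate.

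Heat shock genes (32) had 0 higher and 2 lower with a median of 0.00, and 1, 0 and 6 lower without samples 15, 16 and 36 and 1 under the covariate. Genes of the integrated stress response (24) had 1 in each direction, with none without sample 16, 1 higher and 7 lower without sample 36 and 1 lower under the covariate. Interneuron peptides (20) had 2 higher, with 1 higher without sample 15, without sample 16 or under the covariate, and 3 higher and 4 lower without sample 36. Endothelial markers (20) had 2 lower, with 3 lower without sample 15, 1 higher and none lower without sample 16, 1 higher and 3 lower without sample 36, and 2 lower under the covariate. Mural markers (11) had 1 higher, with 1 lower in its place without sample 15, 2 higher and 1 lower without sample 36, and 1 in each direction under the covariate. Oligodendrocyte precursor markers (15) had 1 lower, with none without sample 15 or sample 16, 1 higher and 3 lower without sample 36, and 2 lower under the covariate. Oligodendrocyte markers (20) had none in either direction, with 2 lower without sample 15 and 1 without sample 36. Blood (7) and choroid plexus (5) markers had none, with 1 blood marker lower without sample 36. Leukocyte (5) and thalamus and striatum (16) markers had 1 higher each, and both had 0 without sample 15.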

How the data were processed

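RNA of left somatomotor cortex was sequenced by the authors in 40 samples. The deposited table gives 55539 features, with expected counts (estimated reads per feature) made for the authors by their sequencing provider. The aligner and counting tool are not given in the sources used here, and mm10 is the build in the submitters' processing notes. All 40 columns were mapped to labels, and 4.46% of the expected counts were not whole, so these counts were rounded. Sample 30 (3xCHI, 4 h) was left out, following earlier work on these data. The study left out 1 sample that the sources used here do not number. The study's filter was kept, which drops a feature when its count is below 10 in 5 or more of the 39 samples, and left 15224. The study reports a smaller number left by its filter, and the reason was not examined.

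The test was edgeR's quasi-likelihood test (version 4.0.16, R 4.3.3, TMM scaling, 1 coefficient per group over 12 groups), with Benjamini-Hochberg adjustment over all tested features and a threshold of 0.05. For 3 samples against 4, the smallest p of an exact permutation test is 0.0571, so none was run on single values. CPM are counts scaled to TMM-adjusted library size. Low-count ratios have 95% exact Clopper-Pearson intervals. On simulated counts for this comparison, with 200 of 15224 genes changed, edgeR found 78% of those at a log2 fold change of 1 and 97% of those at 2. The simulated counts were drawn independently for each sample, without the differences between whole samples that the real counts show. They check the code, and do not give the share of real changes that the test would find.

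The members and gene lists were chosen with earlier results of these data known. Genes named were the 15 higher and 15 lower with the smallest p, a mean of at least 1 CPM, no overlap between groups and a symbol that is not a predicted-gene or clone name, members of the lists with unadjusted p under 0.05 by smallest p (at most 6 per list), and the genes of proteins the study measured. Other named genes were chosen after their values were seen. Lengths came from GENCODE M21 and promoters from RefSeq (GRCm38.p6). Chi-square statistics of the replicate pairs within Sham and within 1xCHI at 4 h found no duplicated library in those groups. Other pairs were not examined. Alternatives were DESeq2 (1.42.0), library size scaling, other filters, only the groups compared, a surrogate variable (sva 3.50.0), number range or sample number as a covariate, and leaving out each replicate.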

Additional observations from a re-analysis of the deposited data

Results flagged for a closer look

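Among 105 named genes and 31 lists, the 4 Sham samples were examined for a sample far from the rest, by the gap to its nearest neighbour as a share of the group's range, against Dixon's 95% critical value. Chance alone gives such a sample in about 5% of groups of this size. Groups of 3 were not examined. Sample 20 was lowest for mt-Nd3 (0.838) and Rps29 (0.896) and highest for mt-Nd4 (0.903). Sample 35 was highest for Gbp6 (0.96). Sample 39 was lowest for P2rx7 (0.839), Sesn2 (0.875) and the hypoxia and glycolysis list (0.967), and highest for the thalamus and striatum marker list (0.94).

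Signals in features outside the main test stood out in sample 15 at 4 h. Gabra6, a GABA receptor subunit of cerebellar granule cells, had 247 counts there and at most 8 in the other 6 samples. Pcp2 had 135 counts there, against at most 4, and Igkc had 97, against at most 3. These genes were picked after their counts were seen.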

How the results depend on the processing

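Genes called at 4 h against Sham numbered 0 in the main test, 11 with DESeq2, 2 with no filter on low counts and 1 with the sample number itself as a covariate (0 with the number range 1 to 18 against 19 to 40), and from 0 to 578 when single replicates were left out, the highest without sample 36. Genes at unadjusted p under 0.05 numbered 914 with only the groups compared and from 705 to 4626 without single replicates, lowest without sample 16. Against 30 min, 4 calls became 17 with DESeq2, 0 with library size scaling, 2 with the sample number as a covariate (6 with the number range) and 0 with the wider filter added after the data were seen, and ranged from 0 to 197 without single replicates. Against 24 h the calls ranged from 0 to 2, and for the fifth injury and its difference from the first they stayed at 0. Of 1873 settings of 105 named genes, 1807 kept direction and side of the threshold, 64 passed the threshold, 58 of them without sample 36, and 2 turned direction: Cxcl16 was -0.06 without sample 15 (-0.06 to 0.83 over single replicates left out) and Atf2 was 0.04 with 1 surrogate variable. Of 341 list settings, 329 moved less than the replicate spread and 12 moved more. The causes were not tested. The groups held 3 and 4 mice, Sham was pooled over times, and the number range overlaps in part with injury. No paired analysis was possible because the labels number the samples 1 to 40 once each.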

Other observations

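Some genes outside the lists, picked after their counts were seen, were low in Sham and present in every 4 h sample. Ccl24, an eosinophil attractant, counted 0, 1, 6 and 0 in Sham and 27, 13 and 12 at 4 h (ratio 10.6, 95% exact counting interval 4.79 to 27.6), and 11, 32 and 8 at 30 min. Pf4, a chemokine of platelets and border macrophages, counted 11, 10, 9 and 8 in Sham and 48, 39 and 18 at 4 h (ratio 3.94, 2.69 to 5.87). Neither gene overlapped between Sham and 4 h.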
